A study of Mus musculus with 18 samples.

Results

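Cytosolic ribosomal protein genes encode the protein part of the ribosome, the particle that translates messenger RNA. The genes described here are the protein-coding mouse genes with a symbol of the Rpl or Rps type, together with Rplp0, Rplp1, Rplp2, Rpsa and Fau, without pseudogenes and without the Rps6k kinases. Of 91 symbols that matched, 85 belonged to protein-coding genes, and 80 of these had a count of 10 or more in at least 3 libraries. These 80 genes, of 52636 listed, are 49 genes of the large subunit (Rpl) and 31 of the small subunit (Rps, Rpsa and Fau). 4 of them lie on the X chromosome (Rpl10, Rpl36a, Rpl39 and Rps4x).

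The study used cultured alveolar type 2 cells, the surfactant-producing cells of the mouse lung alveolus, in 6 groups of 3 libraries. All groups received LGK974, an inhibitor of the acyltransferase Porcupine that stops cells from releasing their own Wnt ligands. The Wnt, FZD5 agonist and FZD6 agonist groups received Wnt, a Fzd5 agonist or a Fzd6 agonist instead of the compound CHIR99201, which the labels class as a Wnt agonist. Fzd5 and Fzd6 are receptors for Wnt ligands. The CHIR group stayed in CHIR99201, in which cells had been grown for 19 days, and the 24 h and 48 h withdrawal groups had it removed for those times with nothing in its place. The labels also state 8 to 12 h of treatment for all groups, which they do not reconcile with the withdrawal times. They name neither the strain, age and number of the mice nor whether separate cultures or animals gave the 3 libraries of each group. P-values therefore reflect the spread among these libraries and nothing wider, and that spread may be technical. The alveolar type 2 marker Sftpc, which encodes surfactant protein C, lay between 39536 and 130462 CPM (read counts scaled to a common library size) in the 18 libraries. Ptprc of blood cells was at most 0.0709 CPM, and Col3a1 of fibroblasts and Cdh5 of endothelium had 0 CPM in every library. Scgb1a1 of club cells ran from 0.0967 to 74.4 CPM. Summed over their lists, haematopoietic markers lay at 769 to 4046 CPM and club and secretory airway markers at up to 959 CPM. The haematopoietic list includes Cd74 and Lyz2, and Lyz2 alone ran from 154 to 2031 CPM. With Ptprc at most 0.0709 CPM, the sum of this list is no measure of blood cells. Basal cell markers summed to 21.8 CPM in FZD6 agonist 1, to 13.1 CPM in CHIR 3 and to at most 0.431 CPM in the others. Alveolar type 1 cell markers summed to between 4993 CPM in CHIR 1 and 10486 CPM in FZD5 agonist 1. CHIR 2 and CHIR 3 had 5010 and 8362 CPM of them, and the 48 h withdrawal libraries 9720, 10480 and 9538 CPM. The part of such cells in the results was not tested.

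A cytosolic ribosome carries most of these proteins in a single copy each, and in dividing cells their messages usually belong to the most abundant in the cell. Many of the messages begin with a C followed by a run of pyrimidines, the 5′ terminal oligopyrimidine (TOP) tract. Through that tract the kinase mTOR and the RNA-binding protein Larp1 control their translation. Ribosome biogenesis, the transcription of ribosomal RNA and its assembly with these proteins, is a well known target of the transcription factor Myc. Mammalian genomes also hold many processed pseudogenes copied from ribosomal protein messages.

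The start of transcription, as RefSeq annotates it on GRCm38.p6, could be read for 61 of the 80 genes. In 14 of these 61 genes (23.0%) the first transcribed base was a C followed by 4 bases that were each C or T, against 3.01% of 27025 genes with a promoter entry and 0 of 69 genes of mitochondrial ribosomal proteins. A tract of a C with at least 4 further pyrimidines that began within 10 bases of the start was held by 36 of the 61 (59.0%), against 34.4% of all genes. The motif CCGGAAG, searched on both strands over 250 bases before and 50 bases after the start, was held by 41.0% of the 61 genes, 37.7% of the 69 mitochondrial ribosomal protein genes and 9.93% of all genes. The motif CACGTG, the E-box that Myc and Max can bind, was found in 9.84% of the 61 and 8.09% of all genes. Matches of this kind describe the letters only. Shown here are the 30 bases from 10 before the start for those genes that differed between 48 h withdrawal and CHIR99201 in at least 1 of the fits described further on and that have an entry (Rpl29, Rpl30 and Rps27a have none), in 5′ to 3′ order on the gene's strand. Capitals mark such a tract, counted from the C nearest to the start and within 10 bases of it. Pyrimidines before that C stay in small letters.
Fau (chr19:6057937-6057966, plus strand): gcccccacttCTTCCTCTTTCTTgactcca
Rpl15 (chr14:18270967-18270996, minus strand): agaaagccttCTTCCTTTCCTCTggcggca
Rpl12 (chr2:32961702-32961731, plus strand): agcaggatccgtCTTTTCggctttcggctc
Rpl27 (chr11:101442235-101442264, plus strand): ctgttcctgtctgctgctcgtgctgctaat
Rps25 (chr9:44407704-44407733, plus strand): ccgacatcttagcgaggctgctgtggtcta
Rpsa (chr9:120127756-120127785, plus strand): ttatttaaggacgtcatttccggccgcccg
Fau and Rpl15 carry a tract of 13 bases counted from the C at the annotated start, with further pyrimidines directly before it. Rpl12 carries a tract of 6 bases counted from a C 2 bases after the start. Rpl27, Rps25 and Rpsa hold no such tract in this window.

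The 80 genes together took between 0.184% and 0.435% of all gene counts per library, out of 31509607 to 52030066 counts. The mean share was 0.212% ± 0.0117 with Wnt, 0.202% ± 0.0161 with the FZD5 agonist, 0.201% ± 0.00492 with the FZD6 agonist, 0.276% ± 0.0721 with CHIR99201, 0.303% ± 0.115 after 24 h and 0.209% ± 0.0115 after 48 h of withdrawal (SD, n = 3 each). In the CHIR and 24 h groups 1 library stood well above the others. In the CHIR libraries 1, 2 and 3 the share was 0.356%, 0.255% and 0.217%, and in the 24 h libraries 0.253%, 0.435% and 0.222%. The named Rpl and Rps pseudogenes, 285 rows of the tables, added 0.0158% to 0.0416% per library, so they held far fewer counts than the genes. The 78 genes of mitochondrial ribosomal proteins, whose products translate inside mitochondria, took 0.290% to 0.696%, which was more than the cytosolic genes in each library. This compares counted reads only. The cytosolic genes have more near copies elsewhere in the genome, as described below, and how reads from such copies were counted is not given. Its part in this difference was not tested. In bulk libraries fewer cells that express a gene and less RNA of it per cell cannot be told apart.

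**Figure D1:**
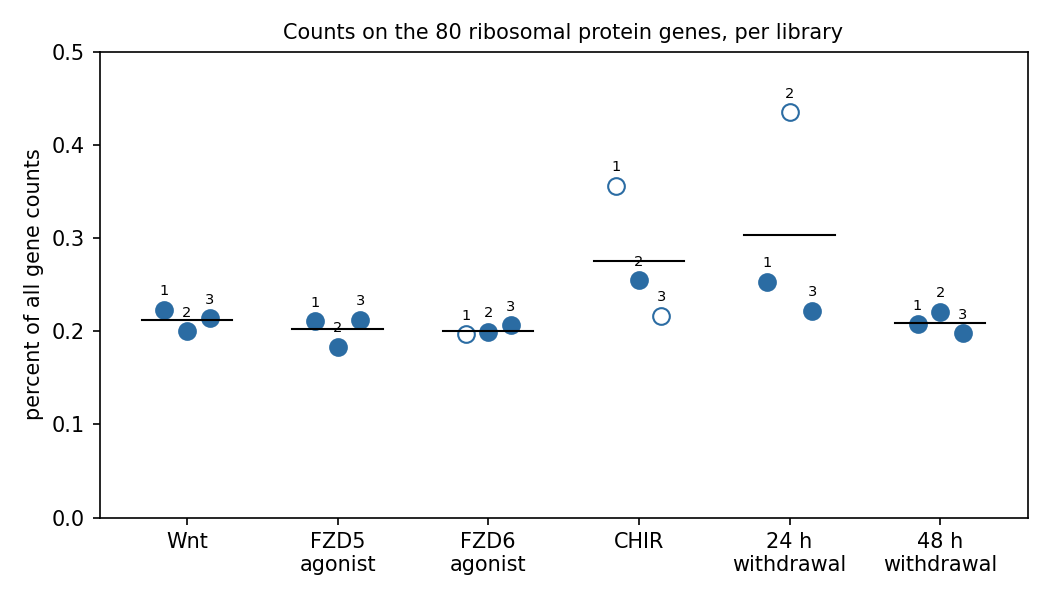
Percent of all gene counts that fell on the 80 ribosomal protein genes in each library, by group, with the library number beside each point and a line at the group mean. Open circles are CHIR 1, CHIR 3, FZD6 agonist 1 and 24 h withdrawal 2. 24 h withdrawal 2 stands at 0.435% and CHIR 1 at 0.356%, and the other 16 libraries lie between 0.184% and 0.255%.

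Levels per length differed widely between these genes. The mean over 18 libraries, in CPM per kilobase of the deposited gene width, ran from 0.392 for Rpl24 to 352 for Rpl8, a ratio of 897, with a median of 5.19. Counting error for a single gene follows from its counts: the median count per library was 205 for the middle gene of the 80, and 33 of the 80 had a median count under 100. Rpl8 (chr15:76904078-76906314, plus strand), at the centre of the large subunit near the peptidyl transferase, and Rpl4 (chr9:64173375-64178666, plus strand), which lines the exit tunnel, had 352 and 269 CPM per kb. Rps27l had 136 CPM per kb, and Rps3, a small subunit protein at the entry of the messenger RNA channel, had 128. The 3 genes with the most counts, of 80, held 41.1% of all counts on the 80, and the 10 with the most held 73.0%. At the low end were Rpl24 (0.392), Rps4x (0.417), Rpl22l1 (0.486), Rpl7a (0.493) and Rpl23a (0.520 CPM per kb). Rpl7a and Rpl23a are core proteins of the large subunit, and Rps4x is a small subunit protein encoded on the X chromosome. Rpl10, Rpl3 and Rpl39, whose paralogues are described further on, had 1.27, 0.734 and 3.21 CPM per kb. The 78 mitochondrial ribosomal protein genes had a median of 21.4 CPM per kb of gene width, against 5.20 for the 80 on the same scale, without scaling factors.

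The number of pseudogene copies differed along the same range. In windows of 50 bases of the transcript in GENCODE M21, a median of 33.6% of a gene's windows had no near copy elsewhere (an alignment score of at least 40 in a gene at another place), against 98.5% for the mitochondrial set. The median gene of the 80 had 11.5 annotated pseudogenes with a near copy, from 1 to 104, and the median mitochondrial gene 0. The 7 genes with at most 2 such pseudogenes, among them Rpl8, Rpl4, Rps3 and Fau, had a median level of 128 CPM per kb (6.13 to 352). The 22 genes with 3 to 9 had a median of 14.8, the 32 with 10 to 19 a median of 3.09 and the 19 with 20 or more a median of 2.36 CPM per kb. Rpl7a, with 104 the most copied, had 8 to 29 counts per library. Spearman's rho between level and number of pseudogenes was −0.42 over the 80 genes, which share libraries and are not independent. Rpl22l1, with 4 such pseudogenes, was low at 0.486 CPM per kb. Fau, with 1, had 7.49 CPM per kb, rank 34 of the 80, whereas Rplp1 with 15 had 71.7 CPM per kb. How the authors' counting treated reads that align to several places is not given in the sources used here, and its part in these levels was not tested. Levels of single genes, the total of the 80 and their comparison with the mitochondrial set are therefore uncertain.

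**Figure D2:**
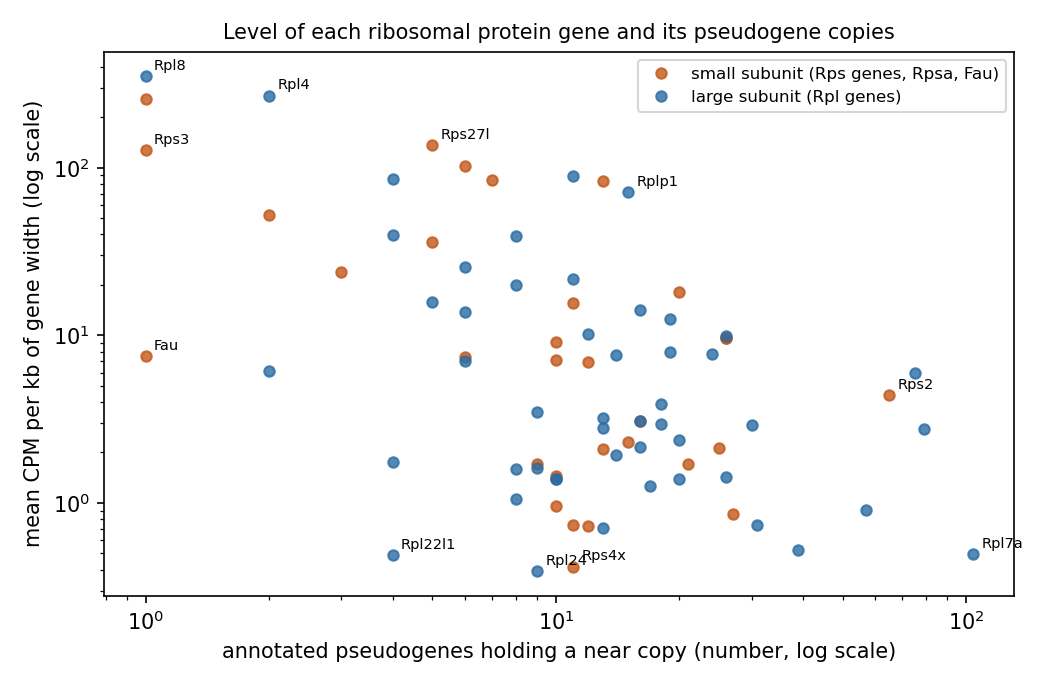
Mean level over 18 libraries in CPM per kilobase of gene width (log scale) against the number of annotated pseudogenes that hold a near copy of the gene (log scale), 1 point per ribosomal protein gene, 31 small subunit genes and 49 large subunit genes. The 5 genes with the highest level have at most 5 such pseudogenes, and the highest of the 19 genes with 20 or more is Rps19.

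5 candidates stayed below 10 counts in all but at most 2 libraries. Rps12, a small subunit protein of every ribosome, was counted at 1 to 10 reads per library. It does not belong to the genes chosen for naming and was picked because of these values. Rpl3l, a paralogue of Rpl3 known from striated muscle, had 0 to 4 counts, and Rpl39l, a paralogue of Rpl39 known from the testis, had 4 counts in CHIR 1 and 0 elsewhere. Rpl10l, the testis paralogue of the X-linked Rpl10, had 0 counts in all 18 libraries, which at a limit of 3 counts allows up to 0.0577 to 0.0952 CPM per library. Rps4l was left out because GENCODE does not class it as protein-coding.

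Other paralogues were counted in every library. Rps27l, a p53 target that is closely related to Rps27, had 58.6 ± 12.2 to 112 ± 59.5 CPM in the group means (SD, n = 3), while Rps27 had 0.151 ± 0.0217 to 0.932 ± 1.33 CPM. No 50-base window of Rps27 was without a near copy, so its low count is uncertain. Rpl7l1, a nucleolar relative of Rpl7 that takes part in large subunit assembly, had 82.2 ± 29.4 to 130.5 ± 28.5 CPM. Rpl36al, an autosomal paralogue of Rpl36a, had 7.27 ± 0.140 to 13.2 ± 6.85 CPM. Rpl22l1, the paralogue of Rpl22, had 0.198 ± 0.0836 to 0.386 ± 0.0643 CPM, against 23.8 ± 3.02 to 54.4 ± 46.9 CPM for Rpl22 itself.

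4 libraries stood apart from the other 14 in the study as a whole: CHIR 1, CHIR 3, FZD6 agonist 1 and 24 h withdrawal 2. Sftpc reached 56315 CPM at most in the 14 and 130462 CPM over all 18. Each comparison is therefore given over 18 libraries and over the 14, which hold 1 CHIR library (CHIR 2), 2 FZD6 agonist libraries and 2 libraries of 24 h withdrawal. In that fit the lone CHIR library is assumed to vary like the other groups.

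The ribosomal protein genes set apart 2 of these 4 libraries, and they were not alone in this. The mitochondrial ribosomal protein genes took 0.696% of counts in 24 h withdrawal 2 and 0.659% in CHIR 1, against at most 0.438% elsewhere. The gene Rack1 took 0.0523% and 0.0412% in these libraries, against at most 0.0292% elsewhere. 64 of the 80 genes had their highest CPM in 24 h withdrawal 2, 14 in CHIR 1 and 2 elsewhere. How many of all genes were highest or raised in these libraries was not counted. The counts given here therefore have no background and describe the 80 only. Against the mean of the 14 libraries, 24 h withdrawal 2 was higher for 75 of 80 genes, by over 2-fold for 58, with a median of 2.68-fold. Rpl9, a large subunit protein, had 39.0 CPM there, against 0.673 to 4.32 CPM in the other libraries, or 22.3 times the mean of the 14. Of its 50-base windows 5.22% had no near copy, and 26 pseudogenes held one. Rps27 followed with 10.4-fold, Rpl37 with 8.03-fold and Rpl11 with 5.66-fold. Not every gene was high: Rps6, the substrate of the S6 kinases, had 0.775 CPM in 24 h withdrawal 2 (0.440-fold) and Rpl7l1 had 48.3 CPM (0.485-fold), in both cases the lowest of the 18 libraries. In CHIR 1 the level was above the mean of the 14 for 77 of 80 genes, with a median of 1.72-fold, and highest for Rpl12 at 3.50-fold. In CHIR 3 and FZD6 agonist 1 the median gene lay at 0.05 and −0.09 on the log2 scale from the mean of the 14.

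In 24 h withdrawal 2 other measures moved with these genes. Mitochondrially encoded genes took 4.13% of its counts, against 0.271% to 0.718% in the other 17, and 10.8% of its counts fell on the nuclear RNAs Malat1, Neat1 and Gm26917. Gas5, a non-coding TOP transcript whose introns hold small nucleolar RNAs, had 165 CPM there, against 36.3 to 87.6 CPM in the other 17. Snhg1 and Snhg12, snoRNA host genes as well, had 37.9 and 12.6 CPM there, against at most 5.31 and 2.26 CPM elsewhere. These RNAs were chosen after their values were seen. The summed haematopoietic list, which includes Lyz2, was at 769 CPM in that library and 1402 to 4046 CPM in the others. In CHIR 1 the mitochondrial share was 0.718%, and the summed markers of club and secretory airway cells were at 49.3 CPM, the lowest of the 18 libraries (highest 959 CPM). Summed basal cell markers were at 0.232 CPM and mesenchymal markers at 0.0871 CPM in CHIR 1. The part of these measures in the high ribosomal protein counts was not tested. With both libraries, the SD of log2 CPM of the median gene over the 18 libraries was 0.46, and over the 14 it was 0.20.

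**Figure D3:**
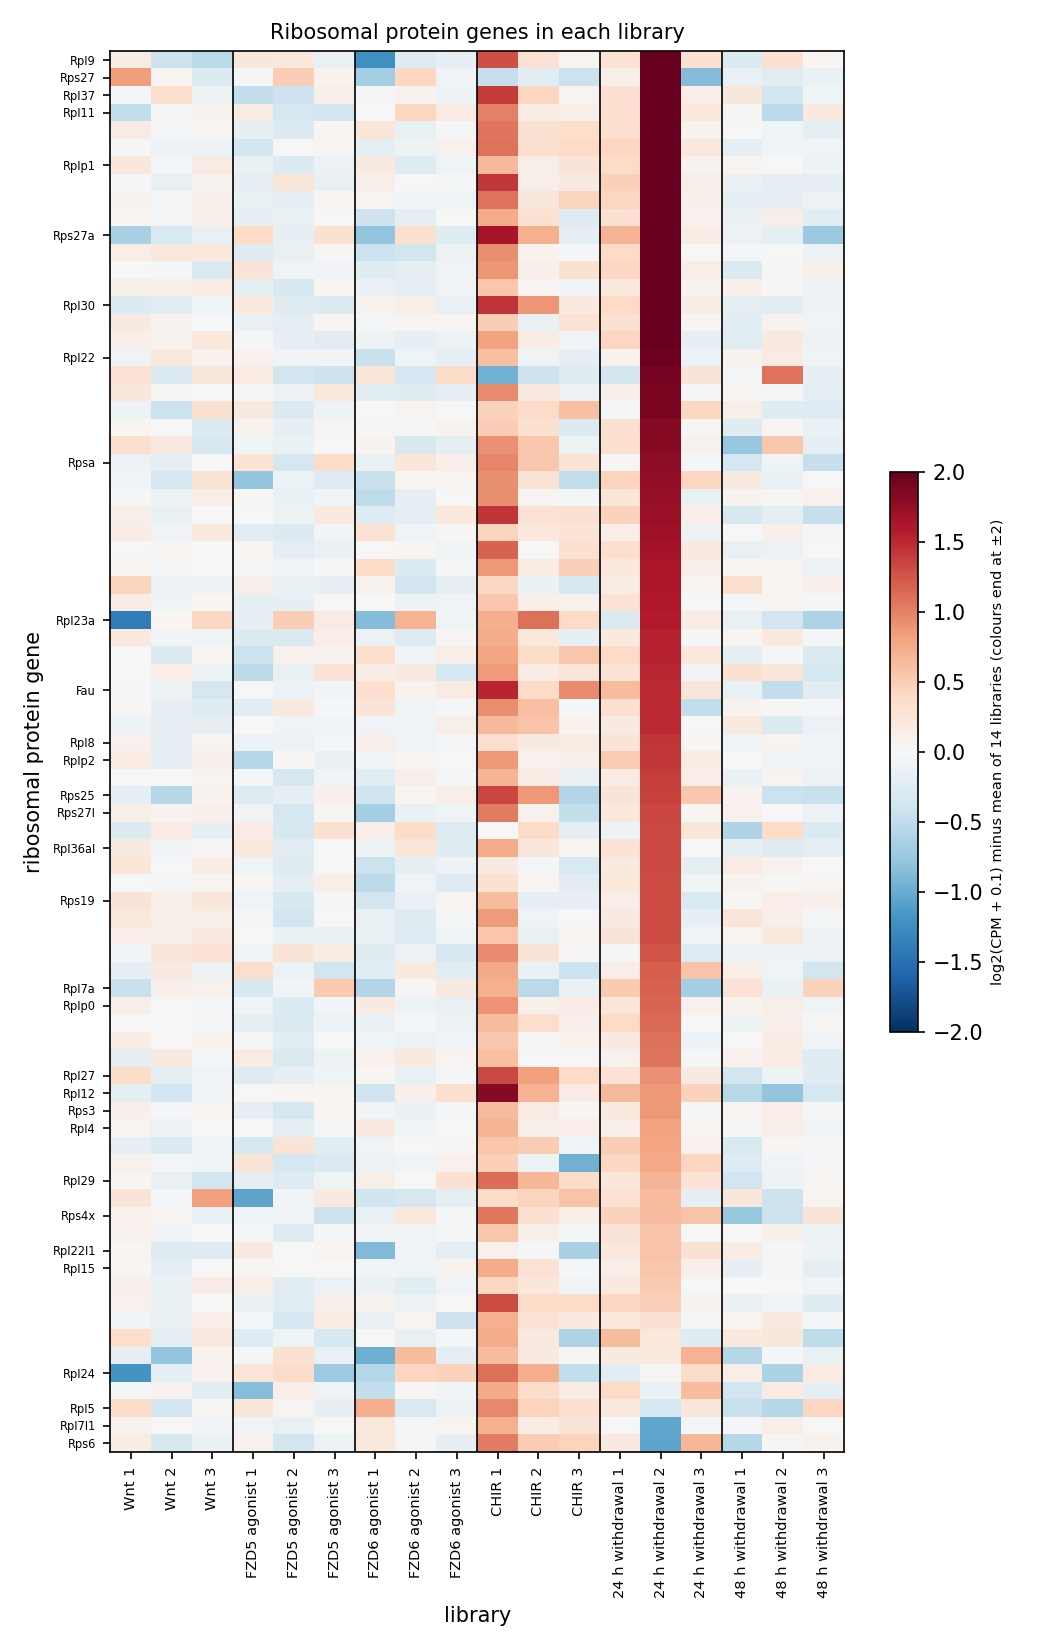
Log2(CPM + 0.1) of each of the 80 ribosomal protein genes (rows, with names for genes described in the text) in each of the 18 libraries (columns, grouped by treatment), minus the mean of the 14 libraries, with colours ending at −2 and 2. On this scale 24 h withdrawal 2 is above the mean of the 14 for 76 genes and CHIR 1 for 78, with Rps6 and Rpl7l1 at the bottom of the 24 h withdrawal 2 column.

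The comparison of 24 h withdrawal with CHIR99201 asks what the first day without the agonist changed. Over 18 libraries edgeR called 0 of the 80 genes, and 0% of all 16497 genes tested. 7 of the 80, and 2809 of the 16497, had an unadjusted p under 0.05, and DESeq2 called none of the 80 at an adjusted p under 0.05 (3.03% of all genes). The median log2 fold change of the 80 was 0.32, against 0.02 over all genes tested. Without 24 h withdrawal 2 the median of the 80 turned to −0.23, and it was 0.60 without CHIR 1, 0.52 without 24 h withdrawal 1 and 0.61 without 24 h withdrawal 3. Over the 14 libraries, with CHIR 2 as the only CHIR library, the median of the 80 was 0.00, against 0.02 over all genes.

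The comparison of 48 h withdrawal with CHIR99201 asks what the longer withdrawal changed. Over 18 libraries edgeR called 3 of the 80 lower after 48 h, among them Rpl12 and Rpl27, and 0 higher (2.59% of all genes were called, 1.49% lower and 1.1% higher). Rpl12, a large subunit protein at the base of the stalk that recruits translation factors (chr2:32961559-32965345, plus strand), had 1.46, 1.22 and 1.70 CPM at 48 h, against 7.99, 3.59 and 2.47 CPM with CHIR99201. The groups did not overlap, and the log2 fold change was −1.68 with an SE of 0.39 (edgeR adjusted p = 0.0327). Rpl27, a large subunit protein (chr11:101442298-101445529, plus strand), had 4.62, 5.61 and 5.02 CPM at 48 h, against 15.2, 10.6 and 7.82 CPM with CHIR99201, a log2 fold change of −1.14 with an SE of 0.28 (edgeR adjusted p = 0.0452). In both genes CHIR 1 was the highest CHIR library, and without CHIR 1, or without any 1 of the 48 h libraries, edgeR called none of the 80. DESeq2 called 5 of the 80 lower and none higher (7.87% of all genes in either direction). Of the 80, 74 had a negative log2 fold change, and the median was −0.42, against −0.04 over all genes tested. Without CHIR 1 the median of the 80 was −0.20.

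Over the 14 libraries, where 48 h withdrawal is set against CHIR 2 alone, edgeR called 10 of the 80 lower and 0 higher, while 13.9% of all 17433 genes were called lower and 13.6% higher. The share of the 80 called lower was thus near the share of all genes. Among them were Rpl12, Rps25, Rps27a, Rpl30, Rpl27, Rpsa, Rpl29, Fau and Rpl15. The log2 fold changes of the 10 ran from −1.28 (Rpl12, SE 0.25, edgeR adjusted p = 0.00112) to −0.40 (Rpl15, SE 0.13, edgeR adjusted p = 0.0302). The median of the 80 was −0.23, against 0.01 over all genes. Rpl30, a large subunit protein, had 2.57, 2.52 and 2.76 CPM at 48 h, against 8.26, 5.58 and 3.43 CPM in the CHIR libraries 1, 2 and 3. Rps25, a small subunit protein that some viral RNAs need for internal initiation, had 1.77, 1.22 and 1.20 CPM at 48 h, against 4.38, 3.15 and 1.08 CPM with CHIR99201. Its CHIR 3 value, from a library outside the 14, was thus below all 3 libraries of 48 h withdrawal. Rpl29, a large subunit protein, had 3.16, 3.89 and 4.32 CPM at 48 h, against 9.16, 6.66 and 5.43 CPM with CHIR99201, with no overlap. Rpl15, a large subunit protein, averaged 14.8 ± 0.981 CPM at 48 h (SD, n = 3; highest 15.9), against 27.0, 19.8 and 15.8 CPM with CHIR99201, and the groups overlapped through CHIR 3.

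Fau and Rps27a encode a ubiquitin-like protein or ubiquitin fused to a small subunit protein. Fau had 4.30, 3.32 and 4.04 CPM at 48 h, against 13.7, 6.17 and 9.19 CPM with CHIR99201, and its log2 fold change over 18 libraries, −1.32 with an SE of 0.34, missed the threshold (edgeR adjusted p = 0.0506). Over the 14 it was −0.64 with an SE of 0.21 (edgeR adjusted p = 0.0347). Rps27a had 1.04, 0.979 and 0.641 CPM at 48 h, against 3.77, 1.94 and 0.987 CPM with CHIR99201, where the lowest CHIR library lay inside the 48 h range. Rpsa, also known as the laminin receptor, had 1.38, 1.69 and 1.28 CPM at 48 h, against 3.61, 2.67 and 2.19 CPM with CHIR99201, with no overlap.

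The stalk proteins, Rpl5, Rpl11 and the paralogues named above were called in neither fit of this comparison. Rplp0, Rplp1 and Rplp2, the acidic stalk that binds elongation factors, had log2 fold changes of −0.04, −0.11 and −0.12 over the 14 libraries, with SEs of 0.13, 0.14 and 0.23. Rpl5 and Rpl11, which can bind Mdm2 and so raise p53, had −0.59 and −0.23, with SEs of 0.40 and 0.46. Rps27l had −0.07 with an SE of 0.12, and Rpl7l1 −0.10 with an SE of 0.09. Rpl11 had 14 to 106 counts per library, so the depth limits what could be detected for it.

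The comparison of 48 h with 24 h of withdrawal asks what the second day changed. Over 18 libraries edgeR called 0 of the 80 in 48 h against 24 h (0.0485% of all genes, 0.0424% higher and 0.00606% lower), while 42 of the 80, and 2973 of all 16497 genes, had an unadjusted p under 0.05, and 79 of the 80 had a negative log2 fold change. The median was −0.79, against −0.06 over all genes, and −0.26 without 24 h withdrawal 2. DESeq2 called 4 of the 80, all lower (3.52% of all genes in either direction). Without 24 h withdrawal 3, edgeR called 8 of the 80, and 509 of 17064 genes tested. The 24 h group holds the library with the highest counts on these genes. Over the 14 libraries the median was −0.25, against −0.01 over all genes, and edgeR called 3 of 80 lower and 0 higher (9.5% of all genes lower, 8.49% higher). Rpl12 had 1.46, 1.22 and 1.70 CPM at 48 h, against 3.48, 4.09 and 3.04 CPM after 24 h, and its log2 fold change over the 14 was −1.15 with an SE of 0.21 (edgeR adjusted p = 0.00136). Fau had 4.30, 3.32 and 4.04 CPM at 48 h, against 7.40, 13.5 and 5.58 CPM after 24 h, with −0.73 and an SE of 0.17 (edgeR adjusted p = 0.00875). In both genes the groups did not overlap, with or without 24 h withdrawal 2, which is the second of the 24 h values.

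**Figure D4:**
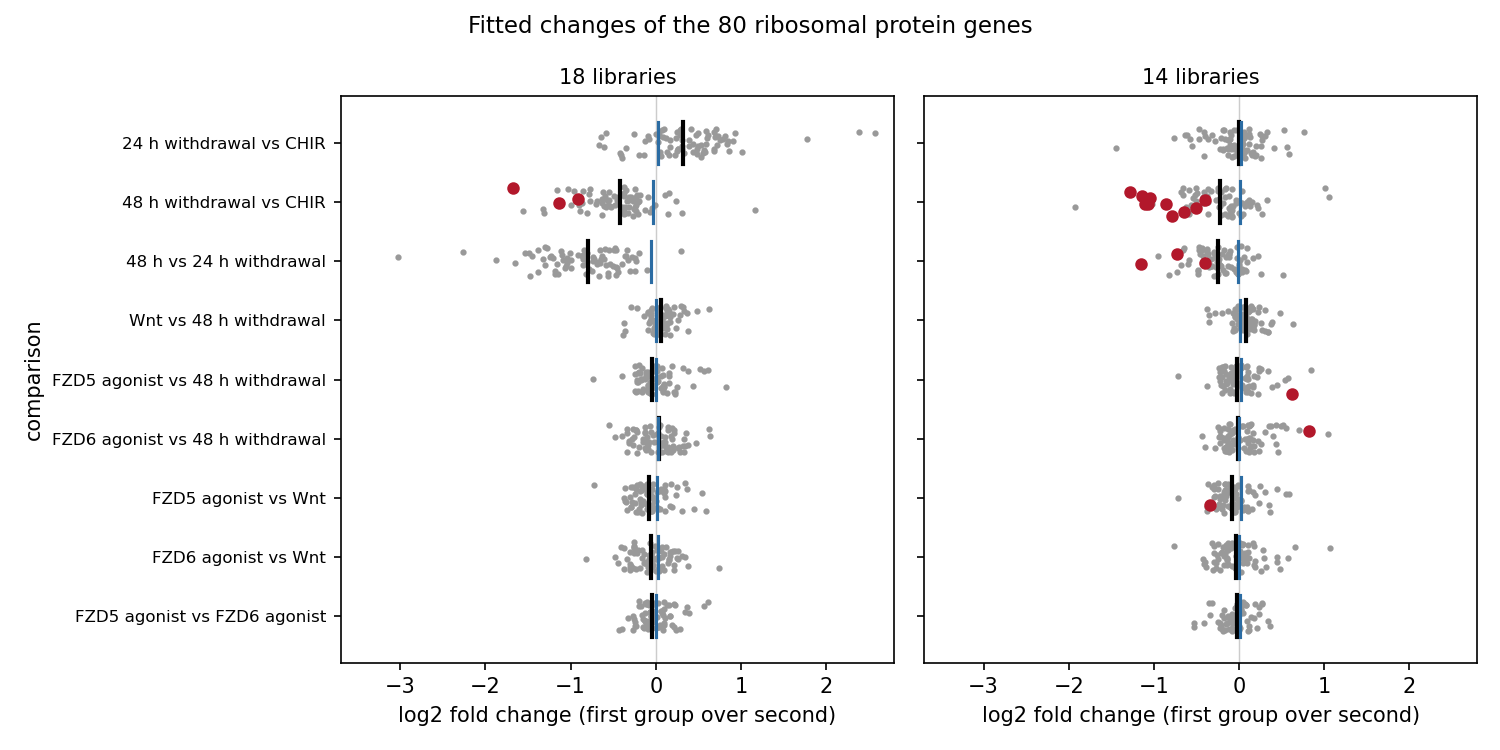
Fitted log2 fold changes (first named group over second) of the 80 ribosomal protein genes in 9 comparisons, over 18 libraries (left) and over 14 libraries (right). Each point is a gene, red points passed an edgeR adjusted p of 0.05, black bars are the median of the 80 and blue bars the median of all genes tested. Over 18 libraries 48 h against 24 h withdrawal has the lowest median of the 80, −0.79, and over 14 libraries the medians lie between −0.25 and 0.08.

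The comparisons of the ligand groups with 48 h withdrawal ask how cells given Wnt or a receptor agonist differed from cells left without either. With Wnt, edgeR called 0 of the 80 against 48 h withdrawal over 18 libraries (0% of all genes), and so did DESeq2. 0 of the 80, and 35 of all 16497 genes, had an unadjusted p under 0.05. Over the 14, which leave the Wnt and 48 h groups whole, edgeR again called 0 of 80 and 0% of all genes. There 0 of the 80, and 1344 of all 17433 genes, had an unadjusted p under 0.05. The median log2 fold change of the 80 was 0.06 over 18 libraries and 0.08 over the 14. With the FZD5 agonist edgeR called 0 of 80 over 18 libraries (0% of all genes) and with the FZD6 agonist 0 of 80 (0.0121% of all genes). Both had 0 of the 80 at an unadjusted p under 0.05, against 393 and 667 of the 16497 genes tested. DESeq2 called 0 of the 80 in both (0.206% and 0.394% of all genes). The medians of the 80 in the edgeR fit were −0.04 and 0.03. The median of the FZD6 agonist comparison turned to −0.02 without FZD6 agonist 1, and to −0.01 without FZD6 agonist 2, without 48 h withdrawal 3 and over the 14. Over the 14, Rpl12 was called higher with either agonist and no other of the 80 was called, while 15.7% of all genes were called with the FZD5 agonist and 12.1% with the FZD6 agonist.

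Rpl12 had 2.18, 2.25 and 2.26 CPM with the FZD5 agonist and 1.63, 2.35 and 2.79 CPM with the FZD6 agonist, against 1.46, 1.22 and 1.70 CPM after 48 h. FZD6 agonist 1, the first of those values, lay inside the 48 h range and is not among the 14. Over the 14 the log2 fold change was 0.62 with an SE of 0.19 with the FZD5 agonist (edgeR adjusted p = 0.0387) and 0.82 with an SE of 0.21 with the FZD6 agonist (edgeR adjusted p = 0.0170). With Wnt it had 1.92, 1.65 and 2.07 CPM, and the difference from 48 h was not called. Both agonist comparisons and the Wnt comparison share the 48 h libraries.

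Against the CHIR group, edgeR called 0 of the 80 over 18 libraries with Wnt (1.92% of all genes, 0.873% higher and 1.05% lower), with the FZD5 agonist (0.00606%) and with the FZD6 agonist (0.00606%). Of the 80, 8, 7 and 7 had an unadjusted p under 0.05, as had 2397, 2223 and 1067 of the 16497 genes tested. DESeq2 called 5, 4 and 0 of the 80 lower and none higher (6.61%, 3.99% and 0.473% of all genes in either direction). Against CHIR 2 alone, over the 14, the median log2 fold changes of the 80 were −0.14 with Wnt, −0.26 with the FZD5 agonist and −0.25 with the FZD6 agonist. Over all genes they were 0.02, 0.02 and 0.00. These 3 comparisons share the same CHIR library. Rpl27 had 7.73, 5.20 and 5.74 CPM with Wnt, 5.02, 5.31 and 5.66 CPM with the FZD5 agonist and 6.19, 5.42 and 5.90 CPM with the FZD6 agonist, each below the lowest CHIR library at 7.82 CPM.

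Against 24 h withdrawal, edgeR called 0 of the 80 over 18 libraries with Wnt (0.0303% of all genes, each of them higher), with the FZD5 agonist (0.00606%) and with the FZD6 agonist (0%). In these comparisons 38, 44 and 44 of the 80 had an unadjusted p under 0.05, as had 2682, 2897 and 2517 of the 16497 genes tested. The medians of the 80 were −0.78, −0.80 and −0.79, and DESeq2 called 0 of them (2.27%, 0.921% and 1.25% of all genes). Over the 14 libraries, without 24 h withdrawal 2, the medians were −0.12, −0.24 and −0.24. In that fit 11, 23 and 7 of the 80 had an unadjusted p under 0.05, as had 4643, 3163 and 2175 of 17433 genes. There edgeR called Rpl12 and Fau lower with Wnt (6.85% of all genes lower), and 0 of 80 with the FZD5 agonist (4.23% of all genes) and the FZD6 agonist (0.677%). Rpl12 had 1.92, 1.65 and 2.07 CPM with Wnt, against 3.48, 4.09 and 3.04 CPM after 24 h, and Fau had 4.63, 4.40 and 3.72 CPM with Wnt, against 7.40, 13.5 and 5.58 CPM after 24 h. In both genes the groups did not overlap.

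Among the ligands, edgeR called 0 of the 80 over 18 libraries in FZD5 agonist against Wnt (0% of all genes), FZD6 agonist against Wnt (0%) and FZD5 agonist against FZD6 agonist (0%). None of the 80 had an unadjusted p under 0.05 in any of the 3 comparisons, while 413, 606 and 164 of the 16497 genes tested had. DESeq2 called none of the 80 (0.212%, 0.37% and 0% of all genes). Over the 14, FZD5 agonist against Wnt gave 1 of 80, Rps19, while 16.7% of all genes were called. Rps19, the small subunit protein most often mutated in Diamond-Blackfan anaemia, had 26.4, 22.3 and 27.5 CPM with the FZD5 agonist, against 33.7, 30.0 and 32.9 CPM with Wnt. The groups did not overlap, and its log2 fold change was −0.35 with an SE of 0.11 (edgeR adjusted p = 0.0465). FZD6 agonist against Wnt gave 0 of 80 (11.8% of all genes), with 8 of the 80 and 4377 of all 17433 genes at an unadjusted p under 0.05. FZD5 agonist against FZD6 agonist gave 0 of 80 (0.00574% of all genes), with 0 of the 80 and 533 of all 17433 genes at an unadjusted p under 0.05. The median log2 fold changes of the 80 over the 14 were −0.08, −0.04 and −0.02 in these 3 comparisons.

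**Figure D5:**
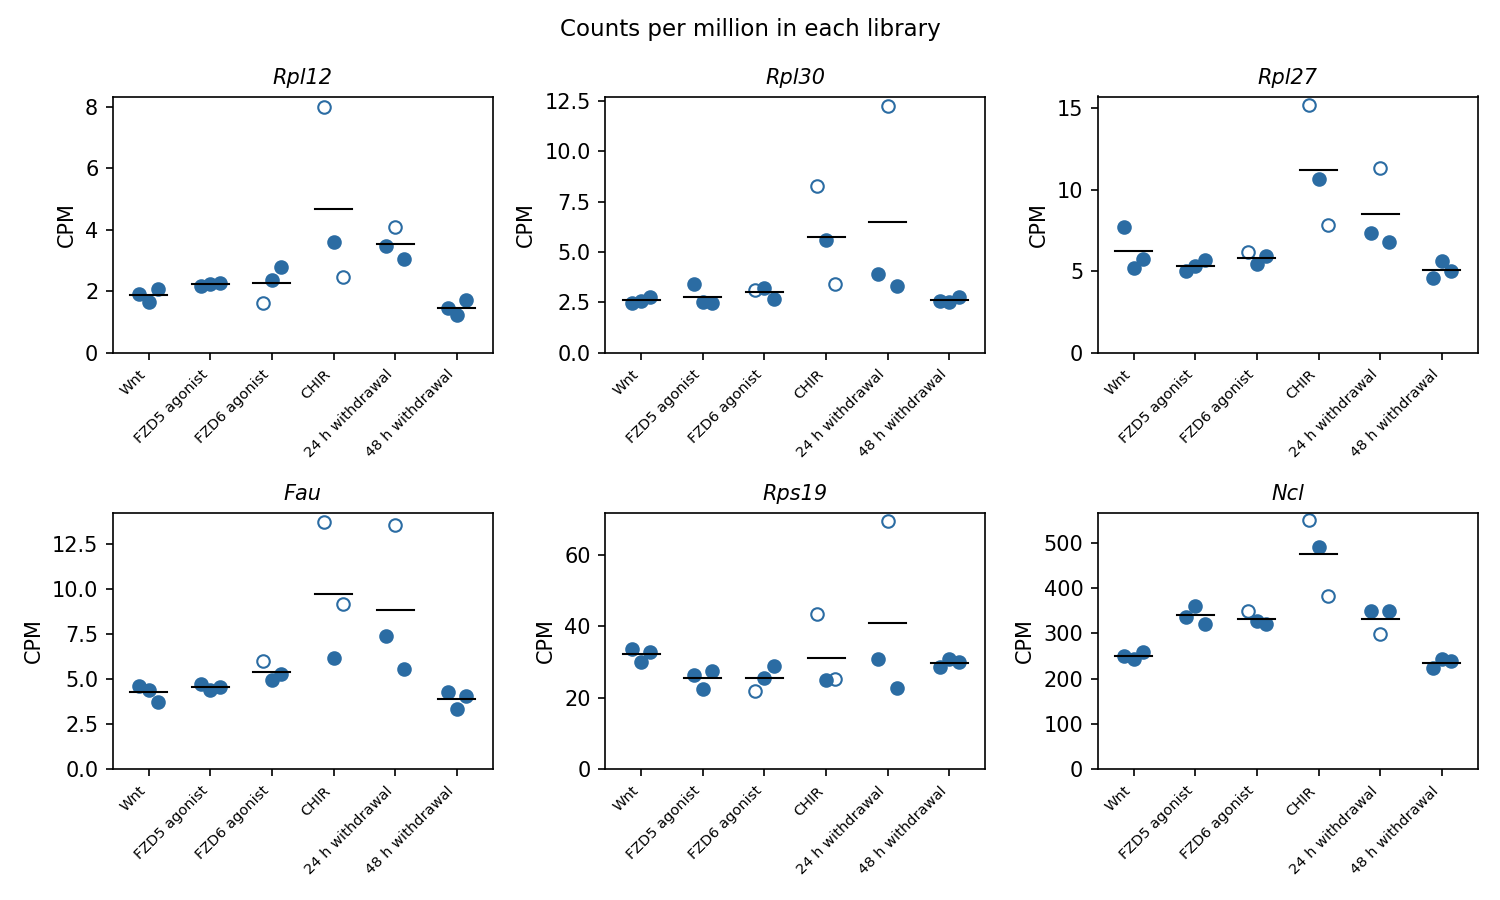
CPM of Rpl12, Rpl30, Rpl27, Fau, Rps19 and the ribosome biogenesis gene Ncl in each of the 18 libraries by group, with a line at the group mean. Open circles are the 4 libraries left out of the 14. CHIR 1 is the highest library for Rpl12, Rpl27, Fau and Ncl, and the 48 h values of Rpl12, Rpl30, Rpl27, Fau and Ncl lie below the 3 CHIR values.

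The list of 48 ribosome biogenesis genes holds, among others, RNA polymerase I subunits, nucleolar proteins and Myc. Of these, edgeR called 22 lower and 0 higher after 48 h of withdrawal than with CHIR99201 over 18 libraries (1.49% of all genes lower, 1.1% higher), with a median log2 fold change of −0.95, against −0.04 over all genes. Ncl, the nucleolar protein nucleolin, had 223, 242 and 240 CPM at 48 h, against 550, 492 and 382 CPM with CHIR99201, a log2 fold change of −1.01 with an SE of 0.17 (edgeR adjusted p = 0.00762). Grwd1, a large subunit assembly factor, had 25.7, 24.2 and 28.2 CPM, against 72.1, 66.4 and 62.8 CPM with CHIR99201, and Nop58, a core protein of the small nucleolar particles that methylate ribosomal RNA, had 28.2, 34.3 and 33.1 CPM, against 100, 79.1 and 60.3 CPM. In all 3 genes the groups did not overlap. Over the 14 libraries 37 of the 48 were called lower and 2 higher after 48 h against CHIR 2 (13.9% of all genes lower, 13.6% higher), and 29 lower and 1 higher in 48 h against 24 h withdrawal (9.5% lower, 8.49% higher). With the FZD5 agonist 22 of 48 were called higher and 1 lower against 48 h withdrawal (8.86% of all genes higher, 6.84% lower), with the FZD6 agonist 21 higher and 1 lower (7.42% higher, 4.73% lower), and with Wnt 0 in either direction (0%). Over 18 libraries the 3 ligand comparisons called 0 of 48, with medians of 0.27, 0.45 and 0.02 for the FZD5 agonist, the FZD6 agonist and Wnt. The difference between this list and the 80 was not tested.

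Myc itself was not called in 48 h withdrawal against CHIR99201 in either fit. It had 22.4, 19.6 and 22.1 CPM at 48 h, against 22.6, 29.2 and 146 CPM with CHIR99201, where CHIR 3 decides the mean. Over the 14 it was higher with the FZD6 agonist, at 42.1 and 45.6 CPM, than after 48 h, by 1.04 on the log2 scale with an SE of 0.18 (edgeR adjusted p = 0.00228). Its relative Mycn had 112, 118 and 99.4 CPM with the FZD5 agonist, against 45.8, 58.0 and 46.0 CPM after 48 h, and was called over the 14, with a log2 fold change of 1.15 and an SE of 0.10.

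Translation elongation factors and other genes with TOP messages made up a list of 26 symbols, among them Gnb2l1, an older symbol of Rack1. Of 25 tested, edgeR called 0 in 48 h withdrawal against CHIR99201 over 18 libraries (2.59% of all genes), with a median of −0.34. Rack1, which sits on the small subunit, had 185, 196 and 182 CPM at 48 h, against 389, 267 and 285 CPM with CHIR99201. Over the 14 its log2 fold change was −0.48 with an SE of 0.11 (edgeR adjusted p = 0.0034). Eef1a1, the elongation factor that brings transfer RNA to the ribosome, had 138, 145 and 141 CPM at 48 h, against 158, 127 and 143 CPM with CHIR99201, overlapping and called in neither fit. Of the 77 tested mitochondrial ribosomal protein genes, 7 were called lower and 0 higher over 18 libraries in the same comparison (median −0.54; 1.49% of all genes lower, 1.1% higher), and 21 lower and 4 higher over the 14 (median −0.15; 13.9% lower, 13.6% higher).

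Regulators of translation were mostly not called over 18 libraries. Of 21, 1 was called lower in 48 h withdrawal against CHIR99201 (1.49% of all genes lower). This was Eif4ebp1, the inhibitor of the cap-binding protein that mTOR switches off, with 64.4, 34.5 and 52.0 CPM at 48 h, against 239, 148 and 263 CPM with CHIR99201. Its log2 fold change was −2.11 with an SE of 0.41 (edgeR adjusted p = 0.0138). Over the 14 it was higher with the FZD5 agonist (1.14, SE 0.32, edgeR adjusted p = 0.0421) and the FZD6 agonist (1.24, SE 0.34, edgeR adjusted p = 0.0498) than after 48 h. Larp1, which binds TOP messages, had 169, 165 and 174 CPM at 48 h, against 59.9, 228 and 197 CPM with CHIR99201, and was called lower over the 14, which leave out CHIR 1 and CHIR 3 (−0.40, SE 0.10, edgeR adjusted p = 0.00541). Of 15 genes for ribosome stress and p53 targets, 1 was called lower over 18 libraries (1.49% of all genes lower), and 5 lower and 3 higher over the 14 (13.9% lower, 13.6% higher). The 1 was Gdf15, a stress-induced cytokine, with 5.37, 4.95 and 6.52 CPM at 48 h, against 70.4, 46.6 and 231 CPM with CHIR99201. It differed by −4.37 on the log2 scale with an SE of 1.08 (edgeR adjusted p = 0.0445). Of 9 tested genes of ribosome quality control, 0 were called over 18 libraries (2.59% of all genes) and 2 lower over the 14 (13.9% of all genes lower), Serbp1 and Ccdc124, both proteins found on idle ribosomes.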

How the data were processed

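RNA was extracted with RNeasy columns, and stranded total RNA libraries (TruSeq) were made from 0.1 µg per sample, per the labels. The deposited files hold the authors' read counts per gene. Reads were aligned with GSNAP to GRCm38, per the submitters' processing notes. For tool versions, the counting tool, the use of strand and reads with several alignments, the entry is: not given in the sources used here. Symbols were matched to 52403 of 52636 gene IDs (99.6%) through GENCODE M21. The genes, gene lists and tests were chosen with earlier results of these data known, and the 14-library fit as well.

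CPM were computed from the counts with TMM factors. 1 edgeR 4.0.16 quasi-likelihood fit of 18 libraries (R 4.3.3, robust, low counts removed by group, 16497 genes) gave every contrast, with Benjamini-Hochberg adjustment over all genes tested and a threshold of 0.05. DESeq2 1.42.0 was an alternative, as were leaving out each library, a replicate block, other scalings and filters, and adding pseudogene counts. Transcript windows of 50 bases were aligned with bwa 0.7.19 (minimum score 40). Heatmap values used a pseudocount of 0.1. The scripts were tested on simulated data. Within each group, pairs of libraries differed by more than counting error (chi-square per degree of freedom 7.53 to 1206), so none was taken for a library deposited again. This does not show that they are separate cultures.

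Named were a fixed set of genes with known roles, up to 8 called genes with the largest change per comparison, the 5 highest and 5 lowest in level, the 5 most variable, and from other lists up to 4 called genes with the smallest p, plus Myc, Eef1a1, Eif4ebp1 and Rack1. Some genes that this rule names are not reported here. The limit for a count of 0 is 3 counts, and it covers counting error only.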

Additional observations from a re-analysis of the deposited data

How the results depend on the processing

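Over 18 libraries, edgeR called 3 of the 80 genes in 48 h withdrawal against CHIR99201. The count was 5 with DESeq2, 10 over the 14 libraries, 1 with the counts of named pseudogenes added to their genes, and 0 with no filter on low counts, with a replicate block and with a fit of these 2 groups alone. Leaving out 1 library at a time gave 0 to 4, with 0 without CHIR 1 or without any 1 of the 3 libraries of 48 h withdrawal, and 4 without CHIR 3. The calls over all genes moved as well. They were 427 of 16497 in the main fit, 1299 with DESeq2, 425 of 16471 with pseudogene counts added and 204 of 30227 without the filter. The block gave 257 of 16497 and the 2 groups alone 129 of 15166. There were 197 of 16970 without CHIR 1 and 920 of 17021 without CHIR 3. Without 48 h withdrawal 1, 2 or 3 there were 57, 87 and 74. In 48 h against 24 h withdrawal the count of 0 became 4 with DESeq2, 3 over the 14 libraries, and 0 to 8 with 1 library left out, the 8 without 24 h withdrawal 3. Over the 14 libraries it was 1 in FZD5 agonist against 48 h withdrawal, 1 in FZD6 agonist against 48 h withdrawal and 1 in FZD5 agonist against Wnt, against 0 over 18. In the other comparisons leaving out 1 library gave 0 to 0. Where fewer samples or other genes do not show why a count moved, the cause was not tested. With RLE scaling Rpl27 stood at −1.12 and lost its call. The log2 fold changes of Rpl12 and Rpl27 kept their sign under the alternatives run, but the median log2 fold change of the 80 turned in 24 h withdrawal against CHIR99201 (0.32, and −0.23 without 24 h withdrawal 2) and in FZD6 agonist against 48 h withdrawal (0.03, and −0.01 over the 14 libraries). Whether the replicate numbers pair the libraries is not known. Deviations of 45 same-numbered pairs had correlations of −0.521 to 0.466 (4 over 0.1), and 5 of 18 libraries correlated best with their own number. The 4 libraries that stand apart take part in these deviations, so the correlations cannot decide the question. The part of the block in the count of 0 was not tested. Relative counting error is largest for the 33 genes with a median count under 100.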
